A study of Mus musculus with 21 samples.

Results

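The genes described here carry out the first steps of protein secretion: delivery of new proteins into the endoplasmic reticulum (ER), and vesicle traffic between the ER and the Golgi. Members were the probes whose platform gene symbol begins with Sec followed by a 2-digit number, is Ssr1 to Ssr4 or Spcs1 to Spcs3, or belongs to the Cop (a, b, e, g, z), Tmed, Srp, Srpr or Kdelr names, and whose detection p-value was under 0.05 on at least 3 arrays of both experiments. The symbols matched 120 of 45259 probes, for 62 genes. Of these, 84 probes for 51 genes passed the detection rule in both experiments and are the members. Another 3 probes passed in the genistein experiment only, 4 in the estradiol experiment only and 29 in neither. No member probe was left for Copb1, Kdelr1, Sec14l3, Sec14l5, Sec24a, Sec31b, Sec62, Spcs2, Srp54b, Tmed5 and Tmed11. No measured level entered the rule beyond detection, and 80 of the 84 probes were detected on all 21 arrays. The symbol rule also took in 5 probes for 3 Sec14-like genes (Sec14l1, Sec14l2, Sec14l4), lipid-binding proteins that share only a name with the pathway, and these are kept apart below.

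Whole prostates of male FVB/N mice, heterozygous for a luciferase reporter under androgen response elements and 8 to 12 weeks old, were profiled on Illumina bead arrays. In the genistein experiment there were 3 arrays each of castrated males given genistein, castrated males given vehicle, intact males given genistein and intact males given vehicle. Genistein is a soy isoflavone that binds estrogen receptors; 300 µg per mouse and day (10 µg per g of body weight) was injected under the skin on 5 days in 0.1 ml of mineral oil with 2% dimethylsulfoxide, beginning 4 days after surgery in the castrated males. The estradiol experiment held 4 arrays of intact males given 17β-estradiol, 0.25 µg per mouse and day (10 µg per kg) on 4 days in oil with 0.5% ethanol, and 5 arrays of intact males given vehicle; all prostates were collected 24 hours after the last dose. All groups, controls included, carried the reporter and received oil injections. Neither pooling of animals nor the lobes dissected is given in the labels, so each p-value measures the spread between these samples, which may be partly technical.

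A protein bound for secretion is recognised at the ribosome by the signal recognition particle (SRP), docked at the SRP receptor and threaded through the Sec61 channel, with the TRAP complex (Ssr1 to Ssr4) beside it, while signal peptidase removes its signal sequence. COPII coats then bud vesicles from the ER, COPI coats return material from the Golgi, Tmed (p24) proteins act as cargo receptors in both, and KDEL receptors bring escaped ER residents back. The luminal epithelium of the prostate is a secretory tissue that depends on androgen, and it shrinks and loses its secretory products after castration.

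Castration lowered this machinery broadly. In vehicle-treated males 46 of the 84 member probes fell and none rose (limma, Benjamini-Hochberg adjusted p under 0.05 over all 22332 kept probes), where 9.54% of all kept probes fell and 9.63% rose. The median log2 change, castrated minus intact, was -0.57 over the members and 0.03 over all kept probes. Individual changes ran between -2.01 (Kdelr3) and 0.37 (Sec24b), and 77 of the 84 lay below 0, where 46.9% of all kept probes did. At an unadjusted p under 0.05 there were 60 members (33% of all kept probes). In 66 members all 3 castrated arrays lay below all 3 intact arrays (17.9% of all kept probes did so), and in 1 (Sec24b) they lay above (20% of all kept probes). Taking each gene by its brightest probe, 28 of 51 genes fell. In bulk tissue, fewer cells of a type and less RNA per cell cannot be told apart. The castrated arrays all lay on 1 chip and the intact arrays of this experiment on another, and castration therefore cannot be told apart from chip.

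**Figure D1:**
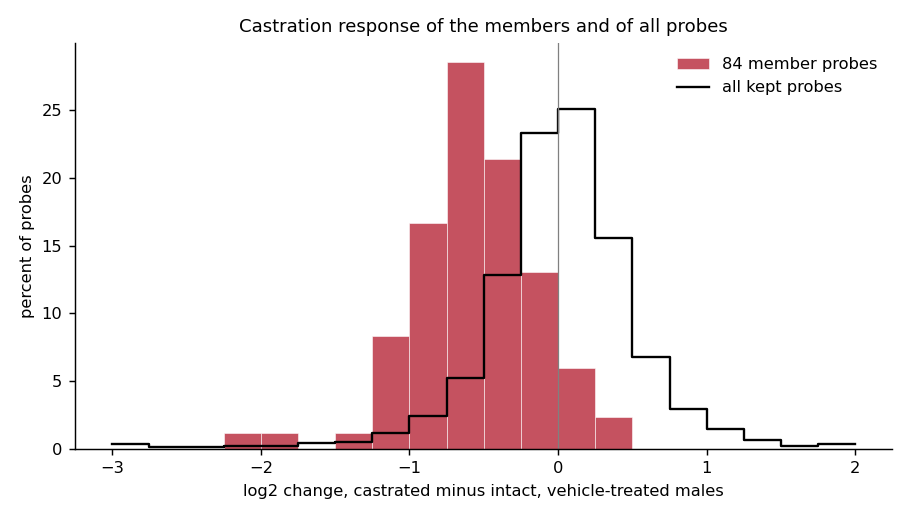
Distribution of the log2 change after castration in vehicle-treated males (x axis, castrated minus intact; the outermost bins also hold values beyond them) for the 84 member probes (filled bars) and all 22332 kept probes (line), as percent of probes (y axis). The members centre on a median of -0.57, the whole array on 0.03.

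Castration in genistein-treated males gave the same direction on arrays of other samples. These lay on the same chips as the arrays of the first comparison, so castration cannot be told apart from chip in this comparison either. Here 59 of the 84 member probes fell and none rose (all kept probes: 10.2% fell, 10.1% rose), with a median of -0.66 over the members and 0.03 over all. At an unadjusted p under 0.05 there were 71 members (33.7% of all kept probes), and 79 of 84 lay below 0 (46.5% of all kept probes). All castrated arrays lay below all intact arrays for 68 members (17.3% of all kept probes) and above them for 1, Sec61a2 (19.8% of all kept probes). Between both comparisons, 42 member probes fell in each, which 6.44% of all kept probes did. By brightest probe, 25 of 51 genes fell in each. Of the member probes, 4 fell in vehicle-treated males only and 17 in genistein-treated males only. The difference between both comparisons is the interaction tested below, which passed for no probe. Of the 3 castrated genistein arrays, arrays 1 and 3 differed from array 2 in seminal vesicle transcripts (below). Leaving those 2 out left 1 castrated array. The members' median lay between -0.77 and -0.56 over all alternatives run, that one included. The median of all kept probes without those 2 arrays was 0.03.

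Cell-type markers moved with castration too. In vehicle-treated males all 10 macrophage markers measured rose (6 of 10 in genistein-treated males), as did all 5 lymphocyte markers (3 of 5) and 6 of 9 fibroblast markers (4 of 9). Summed macrophage signal, on the linear scale, was 9012 to 11610 on the castrated genistein and 9857 to 11330 on the castrated vehicle arrays, against 3959 to 7231 on the intact genistein and 4264 to 5222 on the intact vehicle arrays. Of 10 luminal epithelial markers, 2 rose (Elf3, Krt8) and 2 fell (Foxa1, Hoxb13) in vehicle-treated males, with a median of 0.19, and their summed signal was 26270 to 27460 on the castrated vehicle arrays and 23650 to 24720 on the intact vehicle arrays. Smooth muscle markers moved in the members' direction: 3 of 10 fell in vehicle-treated males (median -0.19) and 6 of 10 in genistein-treated males (median -0.78). Their summed signal was 41950 to 57610 on the castrated genistein and 51260 to 60550 on the castrated vehicle arrays, against 66060 to 84260 on the intact genistein and 64750 to 75900 on the intact vehicle arrays. Of 9 endothelial markers 3 rose in vehicle-treated and 2 in genistein-treated males, and of 5 adipocyte markers 0 and 3 rose. Of 5 urothelial markers 2 rose and 1 fell in each comparison, while 1 of 8 basal and 1 of 8 skeletal muscle markers fell in each. The summed luminal signal in genistein-treated males was 21690 to 25330 on castrated and 22240 to 28400 on intact arrays, which overlap. Of 6 seminal vesicle transcripts, 0 passed in vehicle-treated males (median -1.37, 5 below 0). In genistein-treated males 4 of the 6 fell (median -3.93), with castrated genistein arrays 1 and 3 the lowest (below). What part these markers' cell types have in the members' fall was not tested. All 7 androgen-response check genes fell in both comparisons, probasin (Pbsn), a secreted prostate protein, with a log2 change of -4.64 in vehicle-treated males.

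**Figure D2:**
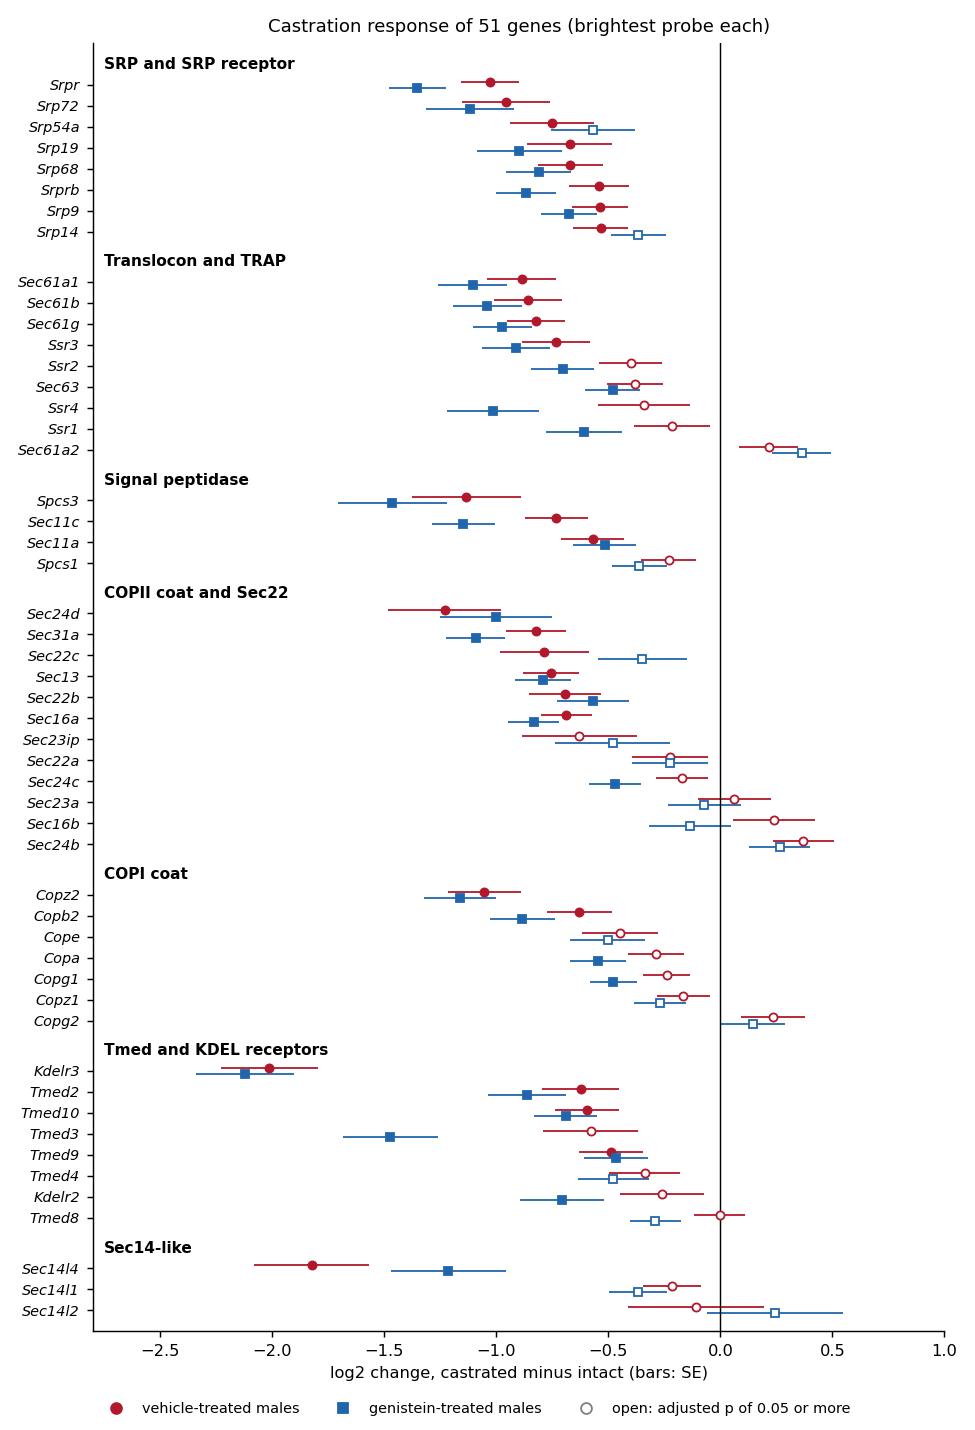
Log2 change after castration (x axis, castrated minus intact; bars are SE, 3 arrays against 3) for the brightest probe of each of the 51 genes, grouped by role. Circles are vehicle-treated and squares genistein-treated males; filled symbols passed the adjusted threshold. Nearly all symbols lie left of 0; Sec61a2, Sec24b and Copg2 lie right of it in both comparisons.

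The SRP and its receptor fell as a whole in vehicle-treated males: 8 of 8 genes, by 0.53 to 1.03 on the log2 scale, and 6 of 8 in genistein-treated males. Srpr, the receptor subunit that docks the SRP at the ER membrane, measured 8.22, 8.25 and 7.90 log2 units on the castrated vehicle arrays, against 9.21, 9.15 and 9.11 on the intact vehicle arrays (change -1.03 ± 0.13 SE, adjusted p = 0.000271). In genistein-treated males it measured 8.08, 8.04 and 7.90 on castrated arrays, against 9.40, 9.45 and 9.22 on intact arrays (-1.35 ± 0.13, adjusted p = 3.53e-05). Castrated and intact arrays thus stood clear of each other under both treatments, with little spread inside a group. Srp72, a large protein subunit of the particle, measured 6.90, 6.86 and 7.39 on castrated vehicle arrays, against 8.35, 7.75 and 7.91 on intact vehicle arrays (-0.96 ± 0.20, adjusted p = 0.00536). Srp54a, the GTPase subunit that binds the signal peptide and which has near-identical copies in the mouse genome that this probe may not separate, changed by -0.75 ± 0.19 (adjusted p = 0.0153) in vehicle-treated and by -0.57 ± 0.19 (adjusted p = 0.0513) in genistein-treated males. Srp19, an assembly subunit, fell by 0.67 and 0.90. Its adjusted p in vehicle-treated males, 0.0267, ranged up to 0.0992 over the alternatives run, and the highest for Srp54a was 0.0574. The subunits of the Alu domain, Srp9 and Srp14, which pause translation, fell by 0.54 and 0.53 in vehicle-treated males.

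In the channel, 4 of 9 genes fell in vehicle-treated and 8 of 9 in genistein-treated males. The 3 subunits of the main Sec61 channel fell together. Sec61a1, its pore-forming subunit, measured 9.73, 9.99 and 9.97 on castrated vehicle arrays, against 10.87, 10.60 and 10.88 on intact vehicle arrays (-0.89 ± 0.15, adjusted p = 0.0021). Sec61g, a small subunit, measured 12.13, 12.19 and 12.16 on castrated vehicle arrays, against 13.19, 12.82 and 12.94 on intact vehicle arrays (-0.82 ± 0.13, adjusted p = 0.00123). Sec61b, the other small subunit, fell by 0.86 on its brighter and 0.96 on its second probe. No castrated array reached the lowest intact array for any of the 3. A second, dim Sec61a1 probe did not pass (-0.29, adjusted p = 0.299, and -0.19, adjusted p = 0.497, in genistein-treated males), so the probes of this gene disagree in call.

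The remaining channel partners changed less in vehicle-treated males. Ssr3, a TRAP subunit, fell by 0.73 ± 0.15 (adjusted p = 0.00597). Ssr1, Ssr2 and Ssr4 lay at -0.22, -0.40 and -0.34 and did not pass, while in genistein-treated males all 4 TRAP genes fell, by 0.61 to 1.01. Sec63, which couples the channel to the ER chaperone BiP, lay at -0.38 (adjusted p = 0.0504) on its brightest probe, which fell by 0.48 in genistein-treated males. Of its 3 probes, 1 fell in vehicle-treated and 2 in genistein-treated males, with changes down to -0.58 and -0.83. Sec61a2, a second pore-forming subunit, measured 9.66, 9.25 and 9.49 on castrated vehicle arrays, against 9.19, 9.32 and 9.25 on intact vehicle arrays. These overlap, and its change of 0.22 ± 0.13 did not pass; in genistein-treated males it was 0.36 ± 0.13 (adjusted p = 0.0714), with all castrated arrays above all intact arrays.

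**Figure D3:**
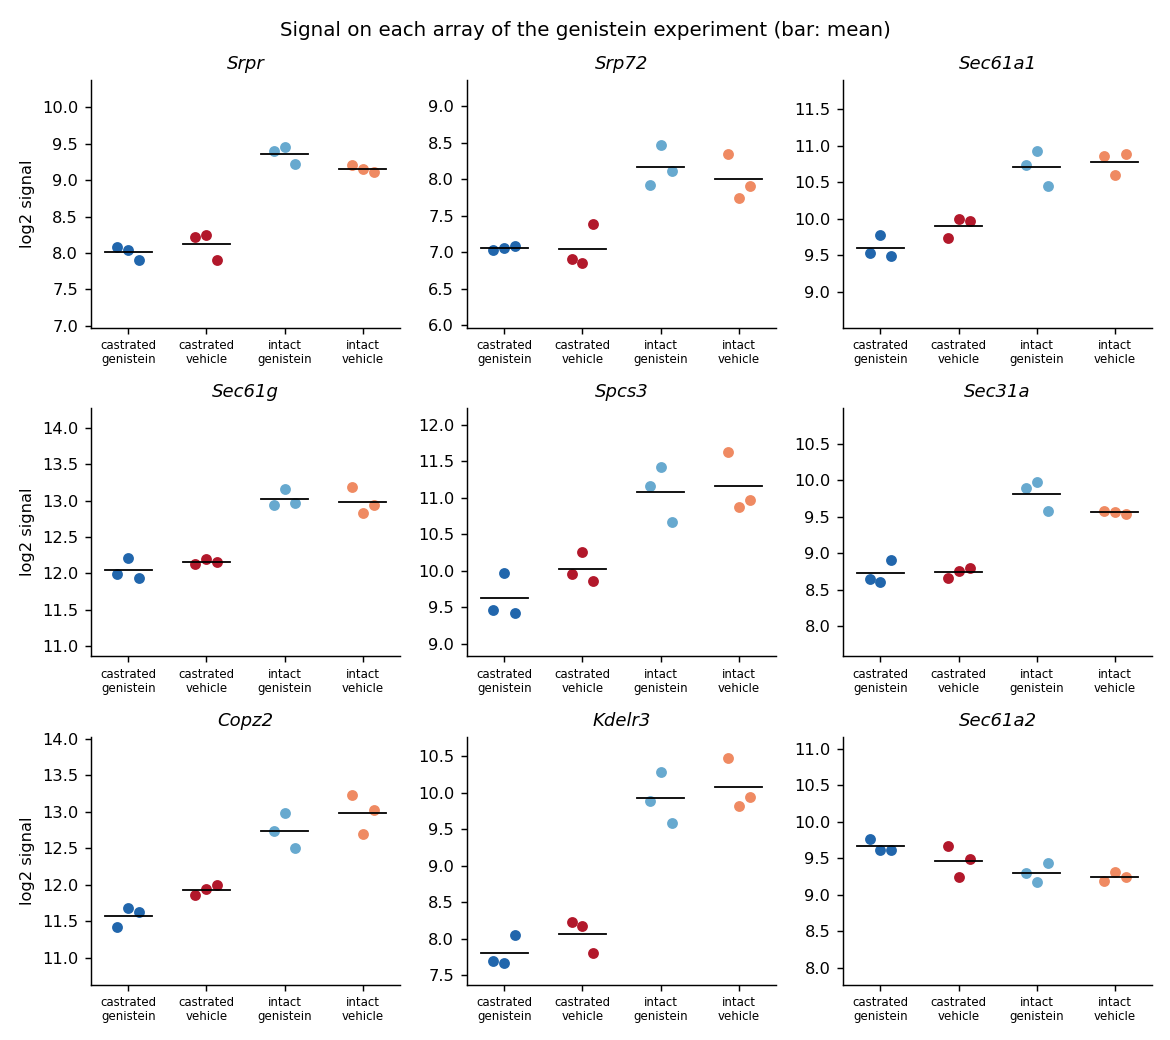
Log2 signal (y axis, the same span of 3.4 units in each panel) on each of the 12 arrays of the genistein experiment for 9 genes; points are arrays and bars group means. In 8 panels the 6 castrated arrays lie below the 6 intact arrays, while Sec61a2 does not fall.

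Signal peptidase fell in 3 of 4 genes in both comparisons. Spcs3, a non-catalytic subunit needed for cleavage, measured 9.96, 10.26 and 9.86 on castrated vehicle arrays, against 11.63, 10.87 and 10.97 on intact vehicle arrays (-1.13 ± 0.24, adjusted p = 0.00711). Of the catalytic subunits, Sec11c fell by 0.73 ± 0.14 (adjusted p = 0.00366) and Sec11a by 0.57 ± 0.14 (adjusted p = 0.0147). The Sec11a call was lost under 3 of 14 alternatives in vehicle-treated males (without castrated vehicle array 1 or 3, or intact vehicle array 1; adjusted p up to 0.0583) and, in genistein-treated males, under 7 of 15 (adjusted p up to 0.237), 6 of which leave out arrays. Spcs1, a small subunit, lay at -0.23 and did not pass. In genistein-treated males the changes of Spcs3 and Sec11c were -1.46 and -1.15. A second, dimmer Spcs3 probe lay at -0.66 (adjusted p = 0.0572) in vehicle-treated males and fell by 1.55 in genistein-treated males.

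COPII genes split: 6 of 12 fell in each comparison. The 12 include the Sec22 genes, of which Sec22b encodes a fusion factor (SNARE) of the same vesicles. Sec24d, a cargo-binding coat subunit, measured 7.48, 7.44 and 6.99 on castrated vehicle arrays, against 8.98, 8.21 and 8.40 on intact vehicle arrays (-1.23 ± 0.25, adjusted p = 0.00531). Sec31a, of the outer cage, measured 8.66, 8.76 and 8.79 on castrated vehicle arrays, against 9.58, 9.56 and 9.54 on intact vehicle arrays (-0.82 ± 0.13, adjusted p = 0.00132). Its cage partner Sec13 fell by 0.75 ± 0.12 (adjusted p = 0.00154), Sec16a, the scaffold of ER exit sites, by 0.69, and Sec22b by 0.69. The 2 cage proteins and Sec16a also fell in genistein-treated males, by 1.09, 0.79 and 0.83. In vehicle-treated males Sec22c fell by 0.78 ± 0.20 (adjusted p = 0.0159) on a dim probe, with a second probe at -0.26 that did not pass and a change of -0.35 (adjusted p = 0.239) in genistein-treated males. The Sec22c call was lost under 3 of 14 alternatives (without castrated vehicle array 1 or 3, or intact vehicle array 3; adjusted p up to 0.0668). In vehicle-treated males the inner-coat genes Sec23a (0.06) and Sec24b (0.37, adjusted p = 0.0756) did not pass, nor did Sec23ip (-0.63), which binds Sec23, Sec22a (-0.23), Sec24c (-0.17) or Sec16b (0.24). In genistein-treated males Sec24c fell by 0.47 (adjusted p = 0.0136) and Sec22c did not pass, so the 6 genes of each comparison are not the same, 5 being shared.

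In the COPI coat the brightest probes fell for 2 of 7 genes in vehicle-treated and 4 of 7 in genistein-treated males, but probe by probe 11 of 16 and 13 of 16 fell. Copz2, the ζ2 subunit, measured 11.86, 11.94 and 11.99 on castrated vehicle arrays, against 13.24, 12.69 and 13.02 on intact vehicle arrays (-1.05 ± 0.16, adjusted p = 0.00101), and its 4 probes fell by 1.05 to 1.29. Copb2, the β' subunit, measured 12.05, 12.21 and 12.13 on castrated vehicle arrays, against 13.04, 12.54 and 12.69 on intact vehicle arrays (-0.63 ± 0.15, adjusted p = 0.0107). Both were separated by array in every case. Cope (ε subunit) and Copg1 (γ1 subunit) lay at -0.45 (adjusted p = 0.0826) and -0.24 on their brightest probes, which did not pass, while the other 3 probes of each fell, by as much as 0.75 and 0.88. Copa, the α subunit, lay at -0.29 (adjusted p = 0.129) and fell by 0.55 in genistein-treated males. Copz1 (-0.16) and Copg2 (0.24) did not pass in either comparison.

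Among cargo and retrieval receptors, 4 of 8 genes fell in vehicle-treated and 6 of 8 in genistein-treated males. Kdelr3, a KDEL receptor, changed most of all members: 8.22, 8.17 and 7.80 on castrated vehicle arrays, against 10.47, 9.82 and 9.94 on intact vehicle arrays, a 4.03-fold lower signal (-2.01 ± 0.22, adjusted p = 8.88e-05). In genistein-treated males it measured 7.69, 7.66 and 8.05 on castrated arrays, against 9.89, 10.29 and 9.59 on intact arrays (-2.12 ± 0.22, adjusted p = 6.35e-05). The gap between groups was larger than the spread inside any of them. Tmed2 and Tmed10, core p24 proteins, fell by 0.62 ± 0.17 (adjusted p = 0.025) and 0.60 ± 0.14 (adjusted p = 0.0119), and Tmed9 by 0.49. The Tmed2 call in vehicle-treated males was lost under 4 of 14 alternatives, median scaling and 3 that leave out an array (without castrated vehicle array 1 or 2, or intact vehicle array 1), with an adjusted p of up to 0.106. Tmed3, another p24 protein, lay at -0.58 (adjusted p = 0.0761) in vehicle-treated males, with its second probe at -0.68 (adjusted p = 0.0467), and fell by 1.47 ± 0.21 (adjusted p = 0.00062) in genistein-treated males. Kdelr2 and Tmed4 did not pass in vehicle-treated males, at -0.26 and -0.34, nor did Tmed8 (adjusted p = 0.993).

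Of the Sec14-like genes outside the pathway, Sec14l4 fell by 1.82 ± 0.26 (adjusted p = 0.000558) and by 1.21 in genistein-treated males, and Sec14l1 and Sec14l2 did not pass on their brightest probes. Leaving all 5 Sec14-like probes out, 45 of 79 members fell in vehicle-treated and 56 of 79 in genistein-treated males. Among the 23 genes with several member probes, 7 had probes on both sides of the threshold in vehicle-treated males, and 1 (Sec24c, -0.17 and 0.04) had probes of opposite sign. In genistein-treated males 9 had such mixed calls and none mixed signs.

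Within several families the members responded unequally. For 15 pairs of paralogues the log2 difference between the brightest probes of both genes was compared between castrated and intact arrays, with an exact two-sided permutation test that shuffled the arrays within each treatment (400 arrangements, smallest possible p = 0.005). The families were picked with earlier results of these data known, so the tests describe pairs and do not support them independently. Sec61a1 fell relative to Sec61a2 by 1.28 on the log2 scale, Kdelr3 relative to Kdelr2 by 1.58, Copz2 relative to Copz1 by 0.89, Copg1 relative to Copg2 by 0.55 and Sec16a relative to Sec16b by 0.81. Sec24d fell relative to Sec24b by 1.43 and relative to Sec24c by 0.80. Each of these 7 reached exact p = 0.005, or 0.0075 after adjustment over the 15 pairs. The pair of Sec22b and Sec22c differed by -0.06 (exact permutation p = 0.73), and that of Sec22c and Sec22a by -0.34 (exact permutation p = 0.055). Values within an array show unequal change and do not show that either gene stayed constant.

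Early secretory genes that the symbol rule leaves out were also lower. Of 53 measured, 20 fell and none rose in vehicle-treated males (median -0.35), and 26 fell and 1 rose in genistein-treated males (Use1, a fusion factor of COPI vesicles, 0.43 ± 0.12, adjusted p = 0.0252; median -0.44). Uso1, the tether that captures ER vesicles at the Golgi, fell by 1.54 ± 0.19 (adjusted p = 0.000277). Rpn1, a subunit of the oligosaccharyl transferase at the channel, fell by 1.15 ± 0.24 (adjusted p = 0.00615), and Rrbp1, a ribosome-binding ER protein, by 1.02 ± 0.18 (adjusted p = 0.00228). Tram1, which assists the Sec61 channel, fell by 0.92 ± 0.19 (adjusted p = 0.00632). Arcn1, the δ subunit of the COPI coat, whose symbol does not begin with Cop, fell by 0.79 and is named after its value was seen. Among the small GTPases that start coat assembly, Sar1a (-0.36), Sar1b (-0.07), Arf3 (-0.20) and Arf5 (-0.23) did not pass in vehicle-treated males. They too are named after their values were seen, and Arf1 and Arf4 of the same list are not given here.

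Transcription factors and proteases known to control secretory capacity were measured beside them. Of 14 such genes, 6 fell in vehicle-treated and 7 in genistein-treated males, and none rose. Spdef, a transcription factor of secretory epithelia, fell by 0.94 ± 0.18 (adjusted p = 0.00385) in vehicle-treated and by 1.41 in genistein-treated males. Creb3l4, an ER-bound transcription factor, fell by 0.82 ± 0.25 (adjusted p = 0.0422) in vehicle-treated males and lay at -0.72 (adjusted p = 0.0664) in genistein-treated males. Bhlha15 (Mist1), which drives the secretory architecture of exocrine cells, fell by 0.81 ± 0.19 (adjusted p = 0.0122) with a larger value in genistein-treated males (adjusted p = 0.000138), and Atf6b by 0.75 ± 0.14 (adjusted p = 0.00381). Xbp1, named after its value was seen, is a known activator of such genes; its transcript lay at 0.14 ± 0.17 (adjusted p = 0.604) and at -0.01 in genistein-treated males. The probe does not separate its spliced form.

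Promoter sequences were searched because the members fell together and such factors bind known elements. RefSeq windows (mouse assembly GRCm38.p6, 250 bases before to 50 after each start site) existed for 42 of the 51 member genes; Kdelr2, Sec11c, Sec14l4, Sec61a1, Spcs3, Srp19, Srp68, Ssr2 and Tmed2 have none in the table. The letters TGACGTGG, the core of the unfolded protein response element (UPRE), stood on either strand in 5 of 42 member genes (11.9%), against 193 of 27025 genes with a window (0.714%). The cyclic AMP response element, TGACGTCA, which shares its first letters, stood in 1 of 42 (Cope, 2.38%, against 2.03% of all genes). The ER stress elements ERSE (CCAAT, 9 bases, CCACG) and ERSE-II (ATTGG, 1 base, CCACG), and the androgen response element (AGAACA, 3 bases, TGTTCT), were in 0 of 42, against 0.137%, 0.0444% and 0.0111% of all genes. A match of letters is a description and not a binding site.

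The windows of the 5 genes with the UPRE core are shown from 150 bases before to 20 after the start site, 5′ to 3′ in the direction of the gene, with the core in capitals. They are the windows of Kdelr3 (chr15:79516258-79516427, plus strand), Sec24d (chr3:123267346-123267515, plus), Copb2 (chr9:98563581-98563750, plus), Sec16b (chr1:157506646-157506815, plus) and Sec23a (chr12:59011998-59012167, minus). In Kdelr3 and Copb2 the core lies on the opposite strand and reads CCACGTCA.
Kdelr3: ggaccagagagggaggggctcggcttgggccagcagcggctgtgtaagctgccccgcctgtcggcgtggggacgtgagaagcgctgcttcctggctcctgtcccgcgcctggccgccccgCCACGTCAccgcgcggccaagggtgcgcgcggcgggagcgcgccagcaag
Sec24d: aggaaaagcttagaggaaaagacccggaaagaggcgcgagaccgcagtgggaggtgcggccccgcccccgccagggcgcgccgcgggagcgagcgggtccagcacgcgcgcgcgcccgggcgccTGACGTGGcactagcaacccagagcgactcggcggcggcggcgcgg
Copb2: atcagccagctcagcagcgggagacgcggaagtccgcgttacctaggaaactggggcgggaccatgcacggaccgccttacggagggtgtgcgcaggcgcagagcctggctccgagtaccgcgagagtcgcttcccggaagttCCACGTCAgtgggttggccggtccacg
Sec16b: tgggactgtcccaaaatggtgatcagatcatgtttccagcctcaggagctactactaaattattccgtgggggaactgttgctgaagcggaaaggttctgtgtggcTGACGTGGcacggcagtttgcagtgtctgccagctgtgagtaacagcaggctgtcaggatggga
Sec23a: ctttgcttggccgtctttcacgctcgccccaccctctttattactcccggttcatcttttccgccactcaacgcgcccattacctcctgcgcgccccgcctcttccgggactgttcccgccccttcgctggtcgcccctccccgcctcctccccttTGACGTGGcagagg
Counted from the start site, the core spans -30 to -23 in Kdelr3, -26 to -19 in Sec24d, -7 to 1 in Copb2, -44 to -37 in Sec16b and 7 to 14 in Sec23a. Kdelr3, Sec24d and Copb2 fell after castration in both comparisons (above), and Sec16b and Sec23a passed in neither. Of the 42 genes with a window 21 fell in vehicle-treated males, 3 of them with the core.

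Genistein in castrated males changed no member past the threshold: 0 of 84 passed, as did 0% of all 22332 kept probes. At an unadjusted p under 0.05 there were 18 members, against 9.22% of all kept probes. The median change, genistein minus vehicle, was -0.13 over the members and -0.01 over all, with 68 of 84 below 0 (51% of all kept probes). All 3 genistein arrays lay below all 3 vehicle arrays for 27 members (9.18% of all kept probes), and above them for none (7.81% of all kept probes). The lowest adjusted p among members, 0.211, belonged to Tmed3.

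The members with the largest moderated t were low on genistein arrays 1 and 3. Tmed3, on the dimmer of its 2 probes, measured 10.24, 11.13 and 10.66 on the castrated genistein arrays, against 11.73, 11.94 and 11.71 on the castrated vehicle arrays (-1.12 ± 0.22, adjusted p = 0.211), and its brighter probe changed by -0.95 (adjusted p = 0.246). The dimmer Spcs3 probe measured 7.46, 8.33 and 7.61 on castrated genistein arrays, against 8.60, 8.85 and 8.59 on castrated vehicle arrays (-0.88 ± 0.22, adjusted p = 0.246). Ssr4, a TRAP subunit, measured 12.62, 13.49 and 12.85 on castrated genistein arrays, against 13.70, 13.81 and 13.65 on castrated vehicle arrays (-0.74 ± 0.21, adjusted p = 0.302). In each, no genistein array reached the vehicle arrays, and array 2 came closest. Tmed4, on 1 of its 4 probes, lay at -0.62 (adjusted p = 0.246). By contrast Sec13 measured 11.68, 11.69 and 11.60 on castrated genistein arrays, against 11.83, 11.72 and 11.51 on castrated vehicle arrays.

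These 2 arrays also stood apart in seminal vesicle secretion transcripts, RNA of the gland next to the prostate. The summed linear signal of 6 such transcripts was 4315, 55500 and 1038 on the castrated genistein arrays, against 62170, 101900 and 57680 on the castrated vehicle arrays, 99740 to 109400 on the intact genistein and 81880 to 110100 on the intact vehicle arrays. Arrays 1 and 3 also stood apart in other tissue markers. The summed signal of 8 skeletal muscle markers was 114100, 71930 and 98840 on castrated genistein arrays 1, 2 and 3, against 63110 to 71990 on castrated vehicle arrays. That of 5 adipocyte markers was 12660, 8296 and 13100 on the same genistein arrays, against 7450 to 8992 on castrated vehicle arrays, and that of the luminal markers was 21690, 25330 and 21950, against 26270 to 27460. The part of these tissues in the lower members was not tested. With genistein array 2 left out, 4 members passed: both Tmed3 probes (-1.34 and -1.19), Spcs3 (-1.15, adjusted p = 0.0156) and Ssr4 (-0.99, adjusted p = 0.0212). In that setting 138 of all 22332 kept probes fell and 30 rose, where 0 did with all arrays. With arrays 1 and 3 left out instead, which leaves 1 castrated genistein array, these 4 member probes lay at -0.67, -0.47, -0.34 and -0.23.

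**Figure D4:**
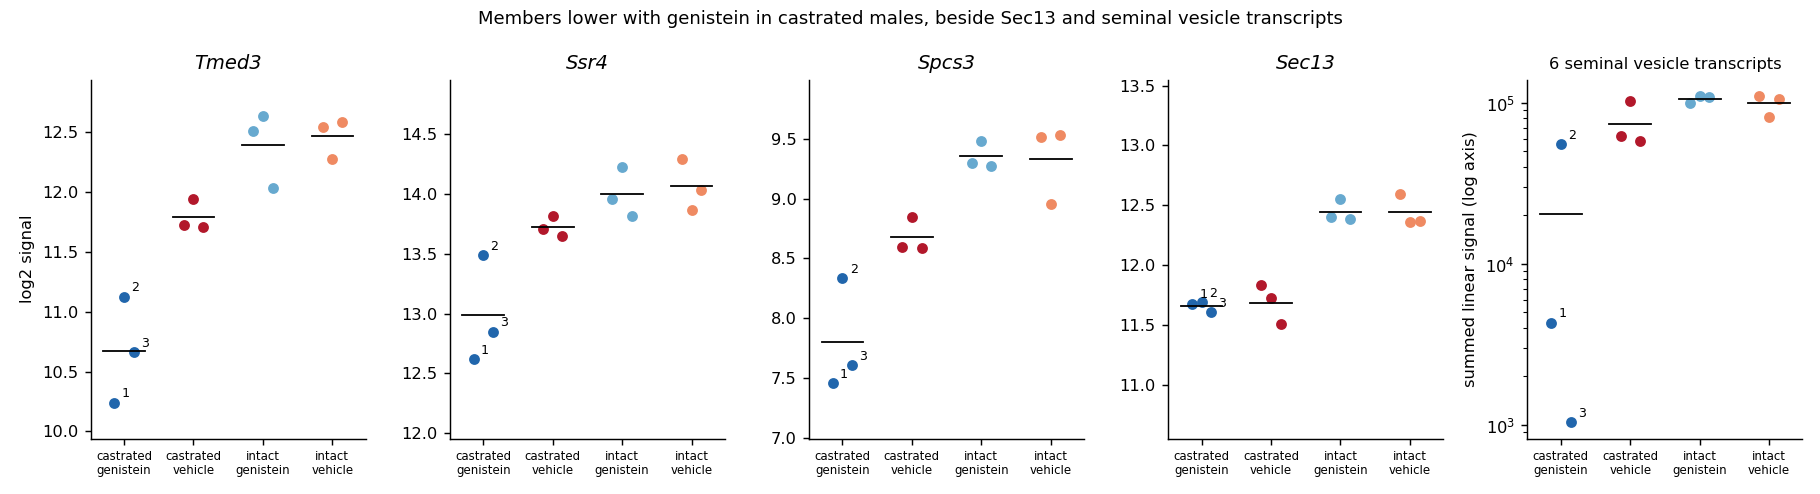
Log2 signal (y axis, 4 left panels, 3 units each) of Tmed3, Ssr4, Spcs3 and Sec13 and, at right, the summed linear signal of 6 seminal vesicle transcripts (log axis) on the 12 arrays of the genistein experiment; numbers mark the castrated genistein arrays and bars are means. Arrays 1 and 3 are lowest for Tmed3, Ssr4, Spcs3 and the seminal vesicle sum, and Sec13 does not show this.

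In intact males genistein changed no member past the threshold either: 0 of 84, as 0% of all kept probes, and 4 at an unadjusted p under 0.05 (7.6% of all kept probes). The median change over members was -0.05, 53 lay below 0 (50.4% of all kept probes), and all 84 lay between -0.61 and 0.61. The largest moderated t was that of Sec16b, a second exit-site scaffold, with 5.83, 6.10 and 6.11 on intact genistein arrays, against 5.43, 5.73 and 5.06 on intact vehicle arrays (0.61 ± 0.18, adjusted p = 0.576). Its genistein arrays lay above its vehicle arrays, on a dim probe. This held for 4 members (5.33% of all kept probes), and the reverse for 3 (5.76%). The next were a second Tmed9 probe (-0.61, adjusted p = 0.622), a second Srprb probe (-0.32, adjusted p = 0.624), Sec14l4 (-0.57, adjusted p = 0.645) and Sec31a (0.26, adjusted p = 0.686).

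The genistein response did not differ between castrated and intact males past the threshold for any member. The interaction, castrated minus intact, passed for 0 of 84 members and 0% of all kept probes, with 61 below 0 (50% of all kept probes), 7 members at an unadjusted p under 0.05 (7.3% of all kept probes) and a median of -0.13 over the members. Tmed3 had the largest, -1.04 ± 0.31 (adjusted p = 0.556), on its dimmer probe, and -0.89 on its brighter one. Spcs3 lay at -0.90 (adjusted p = 0.616), a second Srp9 probe at -0.61 (adjusted p = 0.594) and Tmed4 at -0.52 (adjusted p = 0.642). With arrays 1 and 3 of the castrated genistein group left out, the Tmed3 value was -0.59 and that of Spcs3 -0.36.

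Estradiol in intact males changed no member: 0 of 84 passed, as 0% of all 21835 kept probes, and 5 had an unadjusted p under 0.05 (7.32% of all kept probes). The median change, estradiol minus vehicle, was -0.03, with 45 of 84 below 0 (49.5% of all kept probes). Sec24d had the largest moderated t, with 7.40, 7.30, 7.02 and 7.09 on estradiol arrays, against 8.33, 7.44, 7.87, 7.72 and 7.90 on vehicle arrays (-0.65 ± 0.18, adjusted p = 0.629). It was the only member whose estradiol arrays all lay below its vehicle arrays (1.3% of all kept probes did), by a narrow gap. For no member did they all lie above (1.59% of all kept probes). Within the chip that holds all 4 estradiol arrays and vehicle arrays 1 and 2 (8.33 and 7.44), its change was -0.68 (adjusted p = 0.645). That value rests in part on vehicle array 1, which stands apart from its group (below).

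Of the other members with a large moderated t, Srp72 lay at -0.49 (adjusted p = 0.672), Tmed2 at -0.53 (adjusted p = 0.679), and second, dim probes of Sec61a1 and Ssr1 at 0.49 (adjusted p = 0.634) and -0.68 (adjusted p = 0.634). Kdelr3, the member with the widest castration response, measured 9.96, 9.35, 9.88 and 9.21 on estradiol arrays, against 9.75, 9.26, 9.47, 9.15 and 9.35 on vehicle arrays. The groups overlap, with 2 estradiol arrays above every vehicle array.

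**Figure D5:**
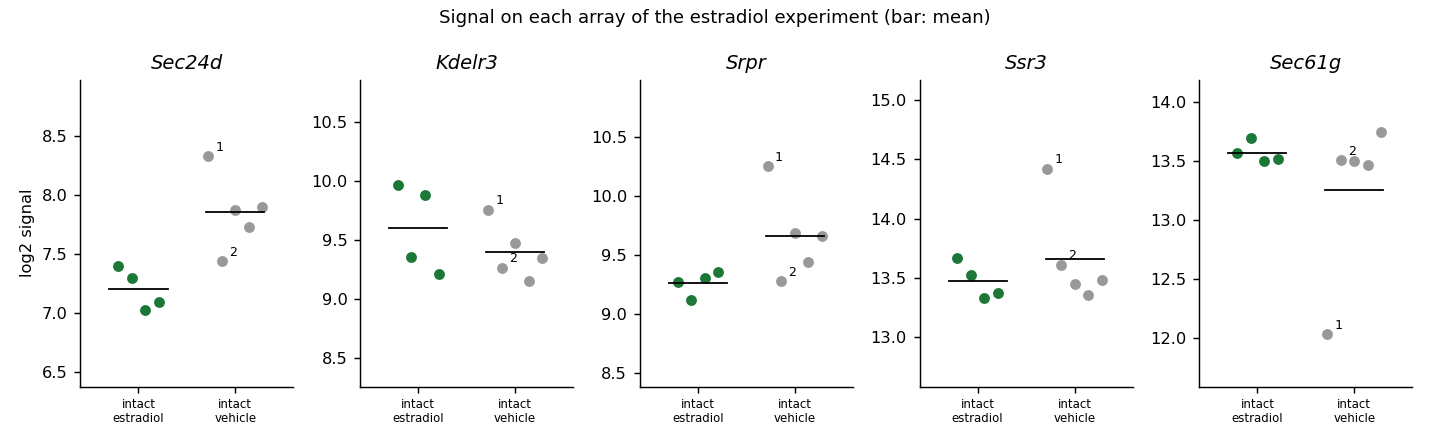
Log2 signal (y axis, 2.6 units in each panel) of Sec24d, Kdelr3, Srpr, Ssr3 and Sec61g on the 4 estradiol and 5 vehicle arrays of intact males; bars are means and the numbers mark vehicle arrays 1 and 2, which share a chip with the estradiol arrays. Vehicle array 1 stands apart, high for Srpr and Ssr3 and low for Sec61g.

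Vehicle array 1 of the estradiol experiment stood apart from its group. Its mean correlation with the other vehicle arrays was 0.954, the lowest of the experiment, and the members' median on it was 0.36 above the vehicle mean. The members did not shift as one there: Sec61g measured 12.04 on it, against 13.47 to 13.75 on the other vehicle arrays, and Srp19 6.61, against 7.95 to 8.42, while Ssr3 measured 14.42, against 13.35 to 13.61, and Copb2 14.01, against 12.81 to 13.05. Its tissue markers differed too: summed signal was 60810 for skeletal muscle on vehicle array 1, against 114100 to 131400 on the other vehicle arrays, and 3274 for adipocytes, against 6626 to 14310. For the luminal markers it was 45410, against 29030 to 35120, and for 8 seminal vesicle transcripts 157900, against 87680 to 114100. Estradiol array 1 was likewise low in skeletal muscle, at 59170, against 107100 to 121300 on the other estradiol arrays. The part of these tissues in the members' values was not tested. Without vehicle array 1 no member passed for estradiol, the median over the members was 0.05, and Sec24d lay at -0.53 (adjusted p = 0.292).

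Median raw intensity was 99.4 to 109 in the genistein and 145 to 171.9 in the estradiol experiment, and the number of arrays limits the precision. The members are bright: their median log2 signal was 9.76, against 7.03 over all kept probes of the genistein experiment, and 83.3% of them exceeded that median.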

How the data were processed

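Per the file headers, the authors deposited for each experiment a linear bead intensity and a detection p-value per probe and array; the intensities are not background-subtracted or normalized, as their values show. The authors also deposited a table of processed intensity, brought to 1 distribution per experiment (method not given in the sources used here; rank correlation 1 with each array), used as an alternative. The submitters' processing notes list BeadStudio and give no version of it.

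In R 4.3.3 with limma 3.58.1, neqc corrected the background from the detection p-values (normexp, offset 16), quantile-normalized within each experiment and took log2. Probes with detection p under 0.05 on at least 3 arrays were kept (22332 genistein, 21835 estradiol), and symbols came from the platform annotation (18 probes with several symbols were not named, 10369 had none). One model per experiment over all kept probes (8 and 7 residual degrees of freedom, eBayes) gave two-sided tests, Benjamini-Hochberg adjusted over all kept probes. Experiments were normalized separately and tested only within themselves.

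A gene is represented by its brightest member probe. Named genes were up to 4 per role by size of the castration change, members with the 5 largest moderated t for the other comparisons, and the 4 largest among called genes of the other lists; others are marked as named after their values were seen, or stand as remaining members of a role. Members, lists and families were chosen with earlier results of these data known. The labels state no pairing by replicate number, and samples were treated as unpaired. The correlation of same-numbered deviations was -0.263 to 0.336, highest for replicate 1 of the estradiol experiment, which does not settle whether samples were paired. Promoter sequences are RefSeq's (GRCm38.p6). Figures used Python 3.11.15 and matplotlib 3.10.9. Alternatives were median scaling, no background correction, the authors' values, other filters, 1 probe per gene, fewer arrays, blocks for replicate or chip, and leaving out arrays.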

Additional observations from a re-analysis of the deposited data

Results flagged for a closer look

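Among the 51 genes by their brightest probe, the named estradiol probes and the member median, 13 of 108 groups of the estradiol experiment had 1 array far from the rest of its group, measured by its gap to the nearest array over the group's range; chance alone gives about 1 in 20 groups. The groups share the same arrays and are not independent, so their count is not a test against that rate. Of the 13, 7 were on vehicle array 1. There Copb2 measured 14.01 (the other vehicle arrays 12.81 to 13.05), Copg2 8.79 (7.83 to 8.01), Copz1 12.66 (11.94 to 12.01), Sec13 13.47 (12.97 to 13.10) and Ssr3 14.42 (13.35 to 13.61), all high. On the same array Srp19 measured 6.61 (7.95 to 8.42) and Sec61g 12.04 (13.47 to 13.75), both low. Sec14l4 measured 7.40 on vehicle array 4 (8.54 to 8.97 on the others).

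On estradiol array 3, Sec14l1 measured 9.01 (9.38 to 9.44 on the other estradiol arrays), Srp54a 8.33 (8.89 to 8.99) and Sec61b 11.69 (11.95 to 12.01). Sec16b measured 5.96 on estradiol array 4 (6.36 to 6.43), and the second Sec61a1 probe 6.38 on estradiol array 2 (7.12 to 7.24).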

How the results depend on the processing

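No call for a member changed direction under the alternatives run. For castration in vehicle-treated males the number of members that passed was 42 with median scaling, 56 with no background correction, 45 with the authors' values, 46 with no filter on dim probes, 51 of 80 with a strict filter and 46 with only the arrays compared, against 46. Of all probes tested, in the same order, 1404, 2321, 1929, 2003 (of 45259), 2022 (of 16078) and 1902 fell, against 2130 of 22332. Those that rose numbered 2972, 2406, 1922, 1938, 1981 and 1930, against 2151. For castration in genistein-treated males the number of members that passed was 65, 67, 56, 59, 66 of 80 and 53, against 59. Of all probes tested 2304, 2433, 2112, 2167, 2161 and 1811 fell there, against 2278. Those that rose numbered 1688, 2498, 1955, 1960, 2170 and 1718, against 2249. With 1 probe per gene 29 and 39 of 51 genes passed, against 28 and 34 of 51 by the brightest probe in the main run. Of the 15406 probes tested there 1546 and 1679 fell, and 1713 and 1722 rose. With replicate number as a block, 44 and 56 members passed, and no other comparison gained a call. In that setting 1882 and 2017 of all kept probes fell, and 1841 and 1926 rose. The labels state no pairing by replicate number. Without castrated genistein arrays 1 and 3, 18 members passed for castration in genistein-treated males. That setting leaves 1 castrated genistein array, and calls over all kept probes dropped there too, so the drop was not limited to the members. The members' median was -0.60 in it, against 0.03 over all kept probes. Leaving out 1 array at a time gave 37 to 48 members for castration in vehicle-treated and 44 to 60 in genistein-treated males. At the ends of these ranges 1619 and 1992, and 1544 and 2253, of all 22332 kept probes fell. For genistein in castrated males it gave 0 to 4 members. The 4 came without castrated genistein array 2, where 138 of all kept probes fell and 30 rose. For genistein in intact males, the interaction and estradiol it gave 0 to 0 members. The lowest count for castration in vehicle-treated males, 37, came without intact vehicle array 1 of the genistein experiment. That array had the lowest mean correlation with its group in this experiment (0.9807). The members' median on it was 0.15, against -0.13 and -0.03 on the other intact vehicle arrays. Its summed skeletal muscle signal was 56660, against 111000 and 97220. The part of that tissue was not tested.

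Median scaling placed the median of all kept probes at 0.13 for castration in vehicle-treated males, against 0.03, and turned the split of all calls to 2972 higher and 1404 lower, against 2151 and 2130; the members' median was -0.51, against -0.57, and none rose. It placed the median of all kept probes at 0.11 for genistein in intact males, -0.15 for the interaction and 0.15 for estradiol, where the members' medians were 0.06, -0.28 and 0.14. Exceptions to no member rising were Sec24b (0.33, adjusted p = 0.0349) in vehicle-treated males with no background correction, and Sec61a2 in genistein-treated males with no background correction (0.33, adjusted p = 0.0315) and with the strict filter (0.36, adjusted p = 0.0484). The members' median ran between -0.65 and -0.47 in vehicle-treated and between -0.77 and -0.56 in genistein-treated males over the alternatives. For estradiol it ran between -0.17 and 0.14, so its sign depends on the setting. Of single members named, 1045 values stayed on their side of the threshold, 38 lost and 25 gained a call, and 3 uncalled values (Sec14l2, Sec22c) changed sign; the cause was not tested. Dim probes such as those of Sec16b and Sec22c limit what can be said of them.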
